A study of Mus musculus with 7 samples.

Results

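The cadherins and non-clustered protocadherins are 34 genes of the 26286 in the deposited count table, chosen by name: the symbol is Cdh followed by digits, or Pcdh followed by digits and an optional x, and the gene has any count in the 7 libraries. Symbols were looked up by Entrez identifier. The list was chosen with earlier results of these data known. Having a count is the only measured value in the rule itself. The members at the edge of that criterion were Cdh16, included with 1 count over all libraries, and Cdh19, left out with 0 counts of 59917615, which allows a level of up to 0.0501 CPM (counts scaled to a common library total), for counting error only.

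The samples were 4 KAT7 mutant and 3 wild type replicates from mouse at E16.5, each taken to be a separate embryo. PolyA RNA from brain, labelled as cortical neurons, was sequenced from each. All were labelled as male and of the C57BL/6 strain. KAT7 is a histone acetyltransferase. The labels name the mutant genotype without its allele or, if one was used, the Cre driver, so which cells lost the gene is not given in the sources used here. Since the samples were bulk RNA, fewer cells of a type and less RNA per cell cannot be told apart.

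Cadherins are calcium-dependent adhesion proteins of the cell surface. Classical cadherins bind their like on a neighbouring cell and are tied to actin inside the cell by catenins. Non-clustered protocadherins each come from a gene of their own, unlike the alpha, beta and gamma protocadherin arrays, and many are found on growing axons and at synapses. In the developing cortex N-cadherin holds the neuroepithelium together and guides migrating neurons, and type II cadherins mark subsets of neurons, layers and areas.

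The libraries held 8272487 to 8813060 counts, and Kat7 checked the labels: 3, 4, 3 and 10 counts in KAT7 mutant replicates 1 to 4 against 869, 848 and 854 counts in wild type replicates 1 to 3. Markers fixed for cortical projection neurons summed to 4515 to 4686 CPM in KAT7 mutant libraries and 4178 to 4594 CPM in wild type libraries. KAT7 mutant replicate 1 stood apart on the second principal component, at 23.1, where the other KAT7 mutant libraries lay at -9.8 to -5 and the wild type libraries at -1.5 to 1.6. The 14 changes reported for members below were called with this library left out as well.

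Of the 34 members, 24 passed the filter on low counts, and 14 of these differed between genotypes in edgeR's quasi-likelihood test at a Benjamini-Hochberg adjusted p under 0.05 over all genes tested. That is 58.3% of the tested members, where 28.9% of all 13681 tested genes were called. In KAT7 mutant samples 5 members rose (Pcdh11x, Cdh22, Pcdh8, Pcdh1 and Cdh13), a direction called for 13.1% of all tested genes, and 9 fell (Cdh12, Cdh9, Pcdh20, Pcdh7, Cdh2, Cdh6, Cdh11, Cdh8 and Pcdh9), a direction called for 15.8%. A fall of at least 2-fold was called for 3 members (3.79% of all tested genes) and a rise of at least 2-fold for 2 (1.1%). For each of the 14 called members the CPM ranges of the genotypes did not overlap, and the same held for Cdh18, which was not called. Such a gap was seen in 35.3% of all tested genes. The median log2 fold change of the 24 tested members was -0.19, beside 0.0025 over all tested genes. The filter itself touched 3 members. Cdh9 and Cdh20 reached its minimum of 1.17 CPM in 3 libraries only with wild type libraries counted, and Cdh22 only with KAT7 mutant libraries counted. Of these, Cdh9 and Cdh22 were called, and their testing rested on the genotype in which they were higher. The list was also chosen with earlier results of these data known, so the counts above are a description.

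**Figure D1:**
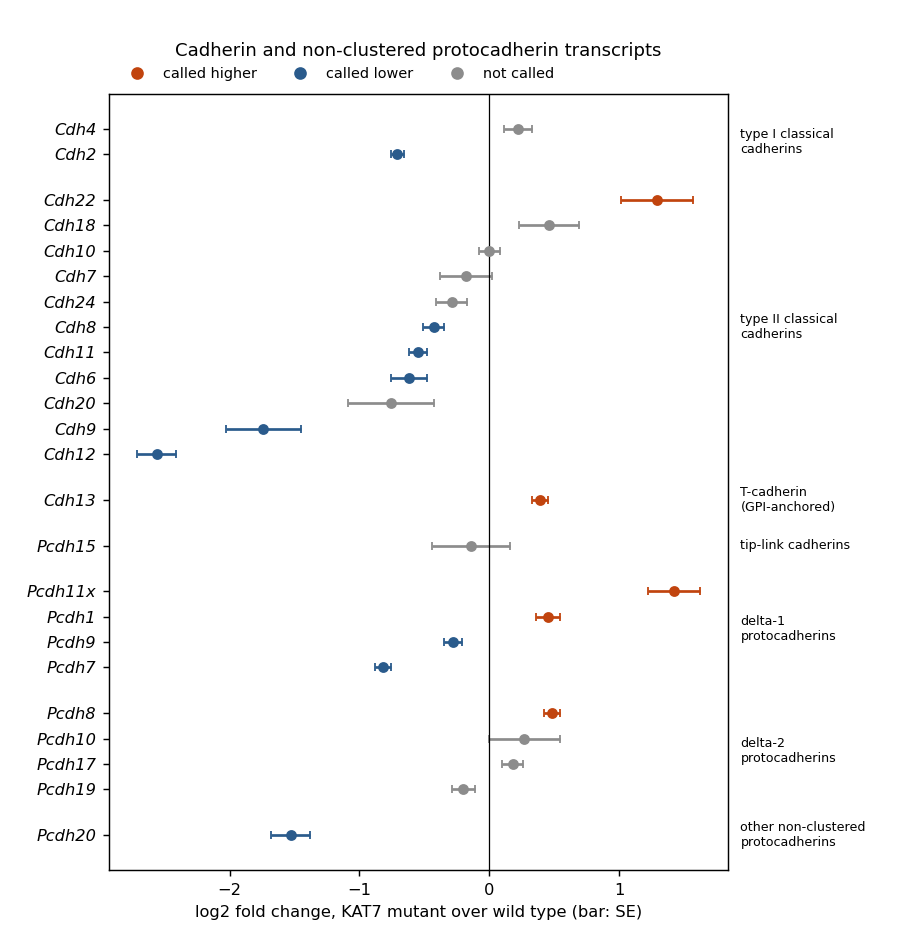
Log2 fold change of KAT7 mutant over wild type (horizontal axis) with its SE for the 24 tested members, in groups by type. Red points were called higher, blue points lower and grey points were not called. Values run from -2.56 for Cdh12 to 1.42 for Pcdh11x, and the type II cadherins and the delta-1 protocadherins hold calls in both directions.

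Cdh2, or N-cadherin, is the type I cadherin of neural tissue and had the highest level per length of all members in both genotypes. Its level was 461, 435, 429.6 and 421 CPM in KAT7 mutant replicates 1 to 4, against 669, 728 and 752 CPM in wild type replicates 1 to 3. Every KAT7 mutant library lay under every wild type library. The mean was 437 ± 17.2 CPM (SD, n = 4) in KAT7 mutant samples and 716 ± 43.0 CPM (SD, n = 3) in wild type samples, which gives -0.71 ± 0.05 (SE) on the log2 scale (edgeR adjusted p = 1.83e-09). Against a fall in 15.8% of all tested genes, markers of radial glia, which also express Cdh2, fell in 5 of 7 and rose in 0. Their sum was 177 to 216 CPM in KAT7 mutant libraries and 240 to 260 CPM in wild type libraries, with none at 0 throughout. Most of the sum was Vim, at means of 119.7 CPM in KAT7 mutant and 145 CPM in wild type samples. Several markers were scarce. Mean levels in KAT7 mutant and wild type samples were 1.33 and 1.27 CPM for Sox2, which was not called. They were 1.16 and 2.88 CPM for Hes5, which fell, and 0.857 and 0.95 CPM for Hes1, which was not tested. The part of radial glia in the fall of Cdh2 was not tested.

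Cdh4, or R-cadherin, was the other type I cadherin tested. It stood at 65.9, 59.0, 88.7 and 67.6 CPM in KAT7 mutant replicates 1 to 4 and at 50.2, 60.6 and 69.8 CPM in wild type replicates 1 to 3. The ranges overlapped, and the log2 fold change of 0.22 ± 0.11 (SE) was not called (edgeR adjusted p = 0.151). With each library left out in turn, it lay between 0.09 and 0.34. Among these runs it was called only without wild type replicate 3 (0.34, edgeR adjusted p = 0.0463). Of the remaining type I cadherins, Cdh15, the M-cadherin of muscle, had 16 counts over all libraries, Cdh3, or P-cadherin, had 7 and Cdh1, the E-cadherin of epithelia, had 2. None of these passed the filter.

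Among the 11 tested type II cadherins, 5 fell, 1 rose and 5 were not called, where 15.8% of all tested genes fell and 13.1% rose. Cdh12, a brain type II cadherin, had the largest fall of any member and the 35th largest among all tested genes. It had 5.14, 5.45, 3.19 and 4.77 CPM in KAT7 mutant replicates 1 to 4, against 24.0, 32.8 and 25.6 CPM in wild type replicates 1 to 3. The fitted fold change put KAT7 mutant samples at 16.9% of wild type samples, or -2.56 ± 0.15 (SE) on the log2 scale (edgeR adjusted p = 1.44e-10). Cdh9, a cadherin known for synapse formation by hippocampal mossy fibres, was scarcer in both genotypes. It gave 11, 9, 4 and 12 counts in KAT7 mutant replicates 1 to 4 and 33, 29 and 31 counts in wild type replicates 1 to 3, a log2 fold change of -1.74 ± 0.29 (SE, edgeR adjusted p = 0.000112). Cdh9 passed the filter only with wild type libraries counted, the genotype in which it was higher. Cdh12 and Cdh9 are both genes of mouse chromosome 15, as are Cdh6, Cdh10 and Cdh18. Of these 5 members 3 fell and 0 rose, where 15.8% of all tested genes fell and 13.1% rose. A part of their location in these falls was not tested.

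Smaller falls were measured for Cdh6, Cdh11 and Cdh8. Cdh11, first described in osteoblasts and present in brain, had 50.4, 61.6, 57.3 and 54.7 CPM in KAT7 mutant replicates 1 to 4, against 81.1, 82.5 and 82.4 CPM in wild type replicates 1 to 3. The wild type libraries were almost level, and all 4 KAT7 mutant libraries lay below them (log2 fold change -0.55 ± 0.07, edgeR adjusted p = 2.67e-06). Cdh8, a cadherin with regional expression in developing cortex, had 61.5, 79.5, 77.6 and 78.6 CPM in KAT7 mutant replicates 1 to 4, against 90.6, 108 and 101 CPM in wild type replicates 1 to 3. Replicate 1 was the lowest of the KAT7 mutant libraries. The log2 fold change of Cdh8 was -0.43 ± 0.08 (edgeR adjusted p = 0.000384), and -0.35 with KAT7 mutant replicate 1 left out. Cdh6 had 9.93, 8.35, 7.09 and 7.95 CPM in KAT7 mutant replicates 1 to 4, against 11.8, 11.3 and 15.3 CPM in wild type replicates 1 to 3. The genotypes were set apart by a narrower gap here than for Cdh11, with a log2 fold change of -0.62 ± 0.14 and an edgeR adjusted p of 0.00286.

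Cdh22 was the type II cadherin that rose. It is a low-abundance transcript here, with 26, 19, 26 and 22 counts in KAT7 mutant replicates 1 to 4 and 8, 10 and 11 counts in wild type replicates 1 to 3. Its log2 fold change was 1.29 ± 0.28 (edgeR adjusted p = 0.00143), and every KAT7 mutant library exceeded every wild type library. Cdh22 passed the filter only with KAT7 mutant libraries counted, the genotype in which it was higher. Cdh10 was nearly level: 50.9, 62.7, 56.0 and 49.2 CPM in KAT7 mutant replicates 1 to 4 and 56.2, 55.6 and 52.5 CPM in wild type replicates 1 to 3, with a log2 fold change of -0.00 ± 0.08 (edgeR adjusted p = 0.998). The wild type libraries lay inside the range of the KAT7 mutant libraries. Cdh24 had 21.7, 14.6, 15.8 and 18.2 CPM in KAT7 mutant replicates 1 to 4, against 22.0, 20.1 and 22.3 CPM in wild type replicates 1 to 3. Its ranges met at KAT7 mutant replicate 1, and the log2 fold change of -0.29 ± 0.12 was not called (edgeR adjusted p = 0.0781). It was called without that library (-0.41, edgeR adjusted p = 0.00723), and lay between -0.41 and -0.21 with each library left out in turn. Cdh20 likewise was not called (-0.76 ± 0.33, edgeR adjusted p = 0.096) but was without KAT7 mutant replicate 3 (-1.20, edgeR adjusted p = 0.00952). With each library left out in turn, Cdh20 lay between -1.20 and -0.55. Cdh7 at -0.18 ± 0.20 and Cdh18 at 0.46 ± 0.23 on the log2 scale were also not called, and Cdh18 had ranges of 2.93 to 3.59 CPM in KAT7 mutant libraries and 1.90 to 2.83 CPM in wild type libraries.

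**Figure D2:**
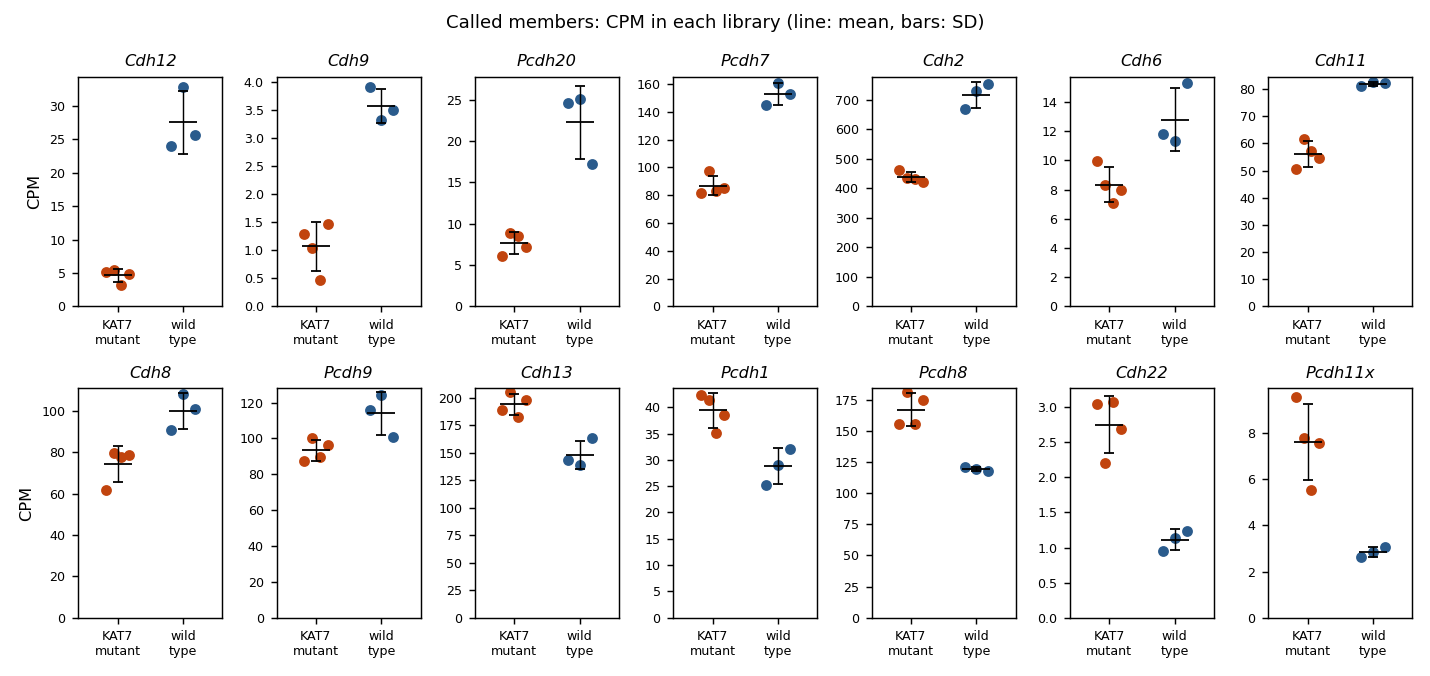
CPM (vertical axis, from 0) of the 14 called members in each library, KAT7 mutant in red and wild type in blue, with the mean and SD of each genotype (n = 4 and n = 3). No panel has overlapping genotypes, and the ratio of the means is widest for Cdh12, with 4.64 CPM in KAT7 mutant and 27.5 CPM in wild type samples.

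Cdh13, or T-cadherin, lacks the transmembrane and catenin-binding parts of classical cadherins and is held to the membrane by a lipid (GPI) anchor. It had the next highest level per length after Cdh2 in both genotypes. Its level was 189, 205, 183 and 198 CPM in KAT7 mutant replicates 1 to 4, against 143, 139 and 163 CPM in wild type replicates 1 to 3. All KAT7 mutant libraries were above all wild type libraries, at 0.39 ± 0.06 (SE) on the log2 scale (edgeR adjusted p = 5.87e-05). Among all tested genes 13.1% rose and 15.8% fell. Markers of interneurons rose in 4, fell in 1 and were not called in 2 of 7 tested genes. Their sum was 322 to 439 CPM in KAT7 mutant libraries and 253 to 408 CPM in wild type libraries. Markers of the oligodendrocyte lineage rose in 4 of 5 tested genes, at a sum of 16.8 to 32.4 CPM in KAT7 mutant libraries and 10.2 to 14.0 CPM in wild type libraries, and those of microglia rose in 3 of 5, at 22.7 to 30.4 CPM in KAT7 mutant libraries and 13.5 to 17.4 CPM in wild type libraries. No marker of the first 2 lists was at 0, and of the microglial genes P2ry12 was near 0, at means of 0.0585 CPM in KAT7 mutant and 0.0763 CPM in wild type samples. Of the oligodendrocyte genes that rose, Sox10 lay at 0.339 to 0.458 CPM in wild type and 1.05 to 2.13 CPM in KAT7 mutant libraries. Its wild type libraries were all under the filter minimum of 1.17 CPM, so its testing rested on the genotype in which it was higher. In other lists, markers of cortical projection neurons rose in 3 and fell in 2 of 8 tested genes. Markers of Cajal-Retzius cells rose in 1 and fell in 1 of 4, and pan-neuronal markers rose in 1 and fell in 2 of 6. Markers of astrocytes and of intermediate progenitors each rose in 0 and fell in 2 of 4. The part of any of these cell types in the rises of members was not tested.

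All 4 delta-1 protocadherins were tested and called, 2 in each direction, where 13.1% of all tested genes rose and 15.8% fell. Pcdh11x, a gene of the X chromosome, had the largest rise of any member and the 51st largest among all tested genes. It gave 9.58, 7.77, 5.55 and 7.58 CPM in KAT7 mutant replicates 1 to 4, against 2.61, 2.86 and 3.05 CPM in wild type replicates 1 to 3. The KAT7 mutant libraries varied more among themselves, but the lowest still exceeded the highest wild type library (log2 fold change 1.42 ± 0.20, edgeR adjusted p = 2.44e-05). Pcdh1 had 42.4, 41.4, 35.1 and 38.6 CPM in KAT7 mutant replicates 1 to 4 and 25.2, 29.1 and 32.0 CPM in wild type replicates 1 to 3. It rose by less, with a log2 fold change of 0.45 ± 0.09 and an edgeR adjusted p of 0.000795.

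The other delta-1 members fell. Pcdh7 had 81.7, 97.2, 83.4 and 85.5 CPM in KAT7 mutant replicates 1 to 4, against 145, 161 and 153 CPM in wild type replicates 1 to 3. The fitted fold change put KAT7 mutant samples at 56.8% of wild type samples, or -0.82 ± 0.06 on the log2 scale (edgeR adjusted p = 5.48e-09). Pcdh9 had 87.5, 100.4, 89.5 and 96.2 CPM in KAT7 mutant replicates 1 to 4, against 116, 124 and 101 CPM in wild type replicates 1 to 3. Its genotypes almost touched, at KAT7 mutant replicate 2 and wild type replicate 3, and it had the smallest change of the 14 called members (-0.28 ± 0.07, edgeR adjusted p = 0.0039).

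Of the delta-2 protocadherins, 4 were tested, 1 rose and 0 fell, where 13.1% of all tested genes rose and 15.8% fell. The riser was Pcdh8, also called arcadlin, which is induced by neuronal activity and known to draw N-cadherin from the synaptic membrane. It had 156, 181, 156 and 175 CPM in KAT7 mutant replicates 1 to 4, against 121, 119.7 and 118 CPM in wild type replicates 1 to 3. The wild type libraries were tightly grouped and the KAT7 mutant libraries all higher, with a log2 fold change of 0.48 ± 0.06 and an edgeR adjusted p of 3.89e-06. Pcdh17, known from synapses of the basal ganglia, had 77.2, 95.8, 82.2 and 83.6 CPM in KAT7 mutant replicates 1 to 4 and 73.0, 83.6 and 68.3 CPM in wild type replicates 1 to 3. Its ranges overlapped and it was not called (0.18 ± 0.08, edgeR adjusted p = 0.0927). It was called without KAT7 mutant replicate 1 (0.22, edgeR adjusted p = 0.0361) and without wild type replicate 2 (0.26, edgeR adjusted p = 0.0311). With each library left out in turn, Pcdh17 lay between 0.11 and 0.26.

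Pcdh19, an X-linked gene known for an epilepsy in humans, had 42.3, 35.9, 46.0 and 45.2 CPM in KAT7 mutant replicates 1 to 4 and 54.7, 49.4 and 41.9 CPM in wild type replicates 1 to 3. Its log2 fold change was -0.20 ± 0.09 (edgeR adjusted p = 0.113), and it was called without wild type replicate 3 (-0.30, edgeR adjusted p = 0.0255). With each library left out in turn, Pcdh19 lay between -0.30 and -0.11. Pcdh10, or OL-protocadherin, had 1.75 to 2.69 CPM in KAT7 mutant libraries and 1.54 to 2.15 CPM in wild type libraries, a log2 fold change of 0.27 ± 0.27 (edgeR adjusted p = 0.48). Pcdh18 gave 8 counts over all libraries and was not tested.

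Pcdh20, a non-clustered protocadherin outside both delta groups, fell to 6.08, 8.93, 8.51 and 7.21 CPM in KAT7 mutant replicates 1 to 4, against 24.6, 25.1 and 17.2 CPM in wild type replicates 1 to 3. The lowest wild type library was still above every KAT7 mutant library. The fitted level in KAT7 mutant samples was 34.6% of that in wild type samples (log2 fold change -1.53 ± 0.15, edgeR adjusted p = 1.60e-07). Pcdh20, Pcdh8, Pcdh9, Pcdh17 and Cdh24 are all genes of chromosome 14. In that group 2 fell, 1 rose and 2 were not called, where 15.8% of all tested genes fell and 13.1% rose. A part of their location was not tested. Pcdh15, which pairs with Cdh23 in the tip links of hair cells, was not called (-0.14 ± 0.30, edgeR adjusted p = 0.758), and Cdh23 had 46 counts over all libraries, the most of any untested member.

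Promoters are shown for 4 of the 5 members that changed at least 2-fold, since these had the largest changes in transcript level. The other is Pcdh11x, whose promoter is not shown. A RefSeq promoter window on GRCm38.p6 (250 bases before to 50 after the annotated start, read along the gene) was given for Cdh12, Cdh9, Pcdh20 and Cdh22. The counts were made on mm9, so these positions belong to GRCm38.p6 alone. Which start was used in these cells was not measured. Capitals mark the CpG dinucleotides.
Cdh12 (chr15:21111202-21111501, + strand): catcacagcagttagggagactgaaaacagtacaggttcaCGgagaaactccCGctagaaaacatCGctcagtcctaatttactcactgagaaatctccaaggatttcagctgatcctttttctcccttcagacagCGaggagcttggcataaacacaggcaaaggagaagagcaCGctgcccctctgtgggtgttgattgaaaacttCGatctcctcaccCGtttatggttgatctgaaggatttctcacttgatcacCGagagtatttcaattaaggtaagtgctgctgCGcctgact
Cdh9 (chr15:16728665-16728964, + strand): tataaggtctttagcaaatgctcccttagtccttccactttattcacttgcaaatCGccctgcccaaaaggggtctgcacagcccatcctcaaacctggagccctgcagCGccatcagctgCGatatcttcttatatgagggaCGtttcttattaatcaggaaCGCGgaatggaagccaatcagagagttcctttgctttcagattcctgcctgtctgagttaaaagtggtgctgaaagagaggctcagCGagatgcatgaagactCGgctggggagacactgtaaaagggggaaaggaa
Pcdh20 (chr14:88471347-88471646, - strand): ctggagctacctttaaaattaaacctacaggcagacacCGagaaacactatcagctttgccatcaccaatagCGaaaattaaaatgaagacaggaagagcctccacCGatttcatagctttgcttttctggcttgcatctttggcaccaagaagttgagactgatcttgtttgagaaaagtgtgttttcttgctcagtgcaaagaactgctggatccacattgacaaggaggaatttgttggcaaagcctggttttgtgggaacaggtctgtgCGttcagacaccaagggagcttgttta
Cdh22 (chr2:165234688-165234987, - strand): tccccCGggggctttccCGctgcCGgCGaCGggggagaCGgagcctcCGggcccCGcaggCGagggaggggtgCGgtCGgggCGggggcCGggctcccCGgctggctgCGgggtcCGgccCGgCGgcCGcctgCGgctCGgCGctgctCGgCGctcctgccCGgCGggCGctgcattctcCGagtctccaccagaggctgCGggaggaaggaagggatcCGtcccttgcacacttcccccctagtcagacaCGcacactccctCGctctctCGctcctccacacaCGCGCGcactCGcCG

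The windows of the 3 members that fell held 9 CpG dinucleotides for Cdh12, 8 for Cdh9 and 4 for Pcdh20, around the median of 7 over all 32851 windows. As many or more were held by 45.8% of all windows for Cdh12, 48.6% for Cdh9 and 68.6% for Pcdh20. The window of Cdh22, which rose, held 38, a number that 4.95% of all windows reach. Among members with smaller changes, Cdh8, which fell, had 21 CpG dinucleotides and Pcdh8, which rose, had 14. Windows were given for 22 of the 34 members. The 9 called members among them ranged from 4 to 38 CpG dinucleotides and the 9 tested members that were not called ranged from 2 to 30. On either strand, the letters GGGCGG were in the window of Cdh22 and in 35.7% of all windows, and CCAAT was in the windows of Cdh9 and Pcdh20 and in 37.4% of all windows. TATAAA was in none of the 4 and in 13.6% of all windows. The letters GGGCGG hold a CpG themselves, and a match is a description of the sequence only.

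Levels of different members were compared per length, as CPM per kilobase of the deposited gene length (RPKM). Summed over the 34 members, the level was 341, 359.6, 338 and 345 RPKM in KAT7 mutant replicates 1 to 4, against 385, 407 and 414 RPKM in wild type replicates 1 to 3. In both genotypes the order began with Cdh2, Cdh13 and Pcdh8, each with no overlap in range with the next. Cdh2 stood at 94.0 RPKM in KAT7 mutant and 154 RPKM in wild type samples. Cdh13 stood at 84.7 RPKM in KAT7 mutant and 64.8 RPKM in wild type samples, and Pcdh8 at 41.7 RPKM in KAT7 mutant and 29.9 RPKM in wild type samples. Cdh8, Pcdh9 and Cdh10 followed in KAT7 mutant samples and Cdh8, Pcdh9 and Cdh11 in wild type samples, and neighbours among these overlapped in range.

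The make-up of the sum differed between genotypes. Cdh2 was 29.1, 26.0, 27.4 and 26.3% of the sum in KAT7 mutant replicates 1 to 4, against 37.4, 38.5 and 39.1% in wild type replicates 1 to 3. Cdh13 made up 24.2, 24.9, 23.7 and 25.1% in KAT7 mutant replicates 1 to 4, against 16.2, 15.0 and 17.2% in wild type replicates 1 to 3. The share of Cdh2 was lower and that of Cdh13 higher in KAT7 mutant libraries, with no overlap between genotypes for either. Type II cadherins held 17.6% of the sum in KAT7 mutant and 20.1% in wild type samples on average. Delta-1 protocadherins held 11.1% in KAT7 mutant and 11.3% in wild type samples, and delta-2 protocadherins 15.9% in KAT7 mutant and 10.6% in wild type samples. The shift in the delta-2 share was mostly Pcdh8, at 12.1% in KAT7 mutant and 7.45% in wild type samples. Shares of a sum are linked, so a fall in Cdh2 raises the others.

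**Figure D3:**
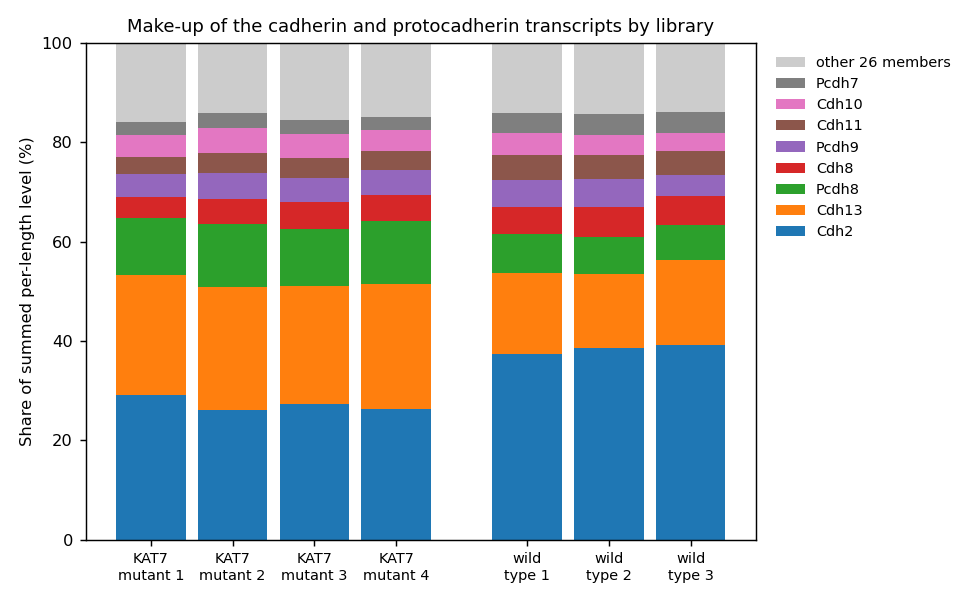
Share of the summed per-length level (vertical axis, %) in each KAT7 mutant and wild type library. Bands show the 8 members with the highest mean level over all libraries, and the other 26 together. In KAT7 mutant samples alone, Pcdh7 ranked 10th. The lowest band, Cdh2, takes 26.0 to 29.1% in KAT7 mutant and 37.4 to 39.1% in wild type libraries, and the band above it, Cdh13, takes 23.7 to 25.1% in KAT7 mutant and 15.0 to 17.2% in wild type libraries.

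Some members lost or gained many places in the order. Of the 24 tested members, Cdh12 was the 19th in KAT7 mutant samples, at 0.822 RPKM, and the 13th in wild type samples, at 4.87 RPKM. Pcdh11x was the 15th in KAT7 mutant samples, at 1.70 RPKM, and the 21st in wild type samples, at 0.635 RPKM. Cdh9 was the 22nd in KAT7 mutant samples, at 0.368 RPKM, and the 17th in wild type samples, at 1.23 RPKM. Many neighbours in the lower part of the order overlapped in range, so single places carry little weight.

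**Figure D4:**
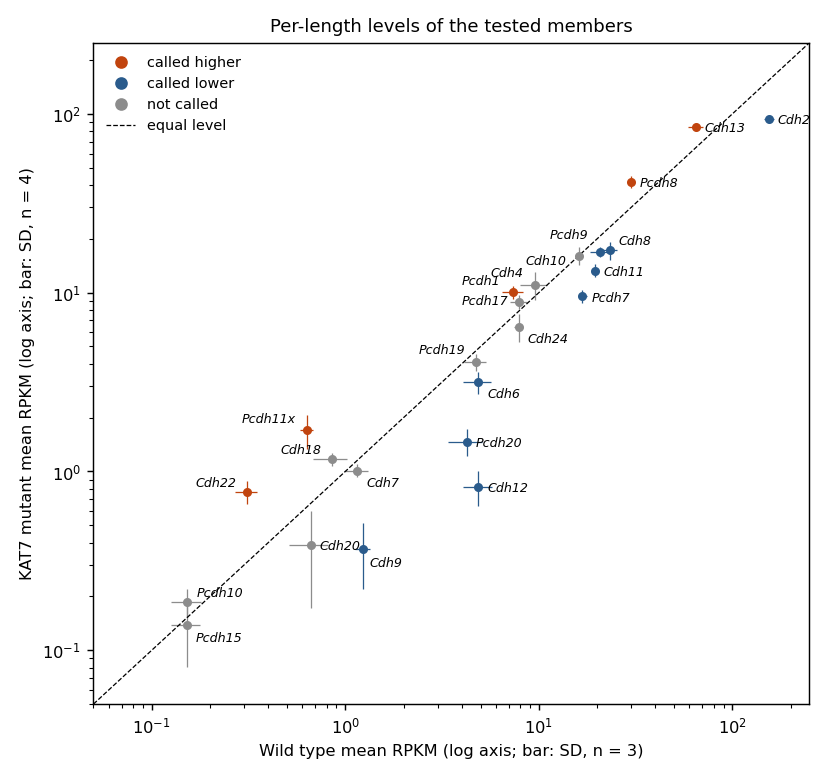
Mean RPKM of the 24 tested members in KAT7 mutant samples (vertical log axis, SD of n = 4) against wild type samples (horizontal log axis, SD of n = 3), with a dashed line at equal levels. Cdh12, Cdh9 and Pcdh20 lie farthest below the line and Pcdh11x and Cdh22 farthest above it.

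The 10 members that failed the filter had at most 11 counts in any library and 1 to 46 counts in all. Tested without the filter, 0 of the 10 were called and 0 had an unadjusted edgeR p under 0.05, so no difference was detectable at this depth. They include Cdh5, the VE-cadherin of endothelium, with 7, 1, 3 and 3 counts in KAT7 mutant replicates 1 to 4 and 1, 3 and 3 counts in wild type replicates 1 to 3, and Pcdh12, another endothelial gene, with 3 counts in all. The other endothelial markers summed to 6.62 to 9.05 CPM in KAT7 mutant libraries and 6.53 to 7.47 CPM in wild type libraries, and 0 of the 4 tested were called by edgeR, DESeq2 or limma-voom, with 1 at an unadjusted edgeR p under 0.05. Cdh17 had 9 counts in all and Cdh26 had 5.

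The partners of cadherins inside the cell include the catenins. Of 14 tested catenin and adherens junction genes, 2 rose, 4 fell and 8 were not called. Among all tested genes 28.9% were called. The median log2 fold change of the list was -0.06. By far the largest change in this list was that of Nectin3, an immunoglobulin-type adhesion protein of adherens junctions, at 7.60 ± 0.655 CPM (SD, n = 4) in KAT7 mutant samples and 32.8 ± 2.92 CPM (SD, n = 3) in wild type samples, a log2 fold change of -2.11 ± 0.11 (edgeR adjusted p = 1.75e-11). Afdn, or afadin, which ties nectins to actin, rose by 0.31 ± 0.05. Arvcf, a catenin of the p120 family, fell by 0.35 ± 0.07 and Jup, or plakoglobin, fell by 0.32 ± 0.07 on the log2 scale.

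Of 13 tested genes for actin regulators and phosphatases that protocadherins bind, 1 rose, 2 fell and 10 were not called. For this list and the next, the share called among all tested genes was 28.9%. The median log2 fold change of the 13 genes was -0.06. The calls were small: Abi1 at 0.24 ± 0.05 and Cyfip1 at -0.25 ± 0.05, both subunits of the WAVE complex, and Ppp1cc, a catalytic subunit of protein phosphatase 1, at -0.23 ± 0.06 on the log2 scale. Ppp1cc was not called without wild type replicate 3 (-0.20, edgeR adjusted p = 0.0523). The list of Fat, Dachsous and Celsr genes, the large cadherins of planar polarity, also held Fjx1, which is no cadherin. Of its 8 tested genes, 2 rose (Fat3 and Fjx1), 1 fell (Fat1) and 5 were not called, at a median of 0.04. Fat1 had 34.1 ± 4.95 CPM (SD, n = 4) in KAT7 mutant samples and 74.3 ± 18.9 CPM (SD, n = 3) in wild type samples, a log2 fold change of -1.12 ± 0.13 (edgeR adjusted p = 1.31e-06). Fat3 rose by 0.66 ± 0.07, and Fjx1, whose fly counterpart four-jointed is a kinase that tunes Fat and Dachsous binding, rose by 0.42 ± 0.07.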

How the data were processed

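Raw read counts per gene were deposited by the authors as a single table of 7 libraries, with a gene length in bases beside each row. The submitters' processing notes name featureCounts and the assembly mm9. How reads were aligned, with which annotation they were counted and whether strand was used is not given in the sources used here. Exons of 7 members overlap another gene in GENCODE M21. Only 1 of those genes, overlapping Pcdh7, has a row in the table, with 11 counts in all. Each column name holds the description of its sample. An NCBI gene table of GRCm38.p6 gave a symbol to 24176 of 26286 Entrez identifiers (92.0%) and was used for names and chromosomes.

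The 13681 genes kept by filterByExpr (minimum count of 10, by genotype) were fitted with edgeR 4.0.16 in R 4.3.3: TMM factors (0.9894 to 1.01), a quasi-likelihood F test with genotype as the only term, two-sided, and Benjamini-Hochberg adjustment over all 13681 genes, called under 0.05. The SE of a log2 fold change is its size over the square root of F. CPM use TMM-adjusted library sizes. The design text speaks of mice, so replicates were taken as animals. Each p-value sets the difference between genotypes against the spread between replicates. Alternatives were RLE factors, library size only, no count filter, a filter of at least 1 CPM in 3 libraries, DESeq2 1.42.0, limma-voom 3.58.1, the replicate number as a block, an adjusted p under 0.01 and each library left out in turn.

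Members, gene lists, marker lists and the naming rule were chosen with earlier results of these data known, so the lists have no test of their own. The rule gave values in every library for up to 8 called members in each direction with the largest change and 6 others with the highest level per length. Of each partner list it named up to 4 called genes.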

Additional observations from a re-analysis of the deposited data

Results flagged for a closer look

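Among the 4 KAT7 mutant libraries, 5 of 35 genes examined had a library far from the other three, with a gap to its nearest neighbour above Dixon's critical value of 0.829 of the range. Chance flags about 1 in 20 groups. Cdh8 was low in KAT7 mutant replicate 1, at 61.5 CPM against 77.6 to 79.5 CPM in the other KAT7 mutant libraries. Arvcf (80.0 CPM) and Cyfip1 (113 CPM) were high in the same library, and Kat7 (1.22 CPM) and Fat1 (41.4 CPM) were high in KAT7 mutant replicate 4. This library gave 10 Kat7 counts, where the other KAT7 mutant libraries gave 3 or 4.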

How the results depend on the processing

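The 14 called members kept their direction and their call under each of the 15 alternatives. The number of members that rose was 5 in the main analysis, 7 with no count filter and 5 to 6 with a library left out, and the number that fell was 9, 11 and 9 to 10 in the same order. With no filter, Cdh4, Cdh24, Pcdh17 and Pcdh19 were also called. Cdh10, at a log2 fold change of -0.00, changed sign with RLE factors (0.0034), in DESeq2 (0.003), under the replicate block (0.04) and between -0.08 and 0.05 with a library left out. Pcdh15 lay between -0.37 and 0.09 with a library left out. The replicate block left 5 rises and 9 falls. Deviations of same-numbered libraries from their genotype means correlated at 0.018, 0.012 and -0.029, so the numbers were not taken to pair the samples. Depth limits what can be said of Cdh7, Cdh9, Cdh18, Cdh20, Cdh22, Pcdh10 and Pcdh15, each averaging under 5 CPM in both genotypes, and of the 10 untested members.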
